A study of Nothobranchius furzeri with 68 samples.

Results

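Gene expression was compared between male and female livers of old, fasted turquoise killifish. The species, Nothobranchius furzeri, lives in seasonal ponds, matures and ages within months, and is used to study ageing. The comparison held 13 of the 68 libraries of the series, namely 6 males and 7 females, chosen by tissue, age, feeding and sex in the labels. All were 15 weeks old and had been fasted for 24 h before the liver was taken. Of the males, 3 were heterozygous (Het) for aprt and 3 were wild type (WT), and of the females 4 were Het and 3 were WT. The gene aprt encodes adenine phosphoribosyltransferase, which makes AMP from adenine, and the allele of the Het fish is not described in the labels. Genotype entered the model as a covariate, and folds are given as male minus female on the log2 scale. For comparison, the same contrast was made in livers of 7 male and 7 female fasted fish aged 6.5 weeks, which were other animals, and in muscle of the same 13 old fish. The fed fish analysed here were all males, so the sex difference was measured in fasted fish alone. Total counts ran from 22686963 to 31600126 in the 13 livers.

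The liver of an egg-laying female fish makes the egg yolk as well as the plasma proteins that both sexes need. Estrogen from the ovary enters hepatocytes and binds estrogen receptors, chiefly the product of esr1, which then switch on vitellogenin genes and raise their own receptor. Vitellogenins are large lipid-carrying phosphoproteins that pass through the endoplasmic reticulum and Golgi, enter the blood and are taken up by growing oocytes, where they are cut into yolk proteins. During a fast the liver burns fatty acids, and the carnitine shuttle that carries them into mitochondria sets the pace of that process.

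Of 16162 genes tested, 2845 differed between the sexes, which is 17.6% of the genes (edgeR quasi-likelihood test, Benjamini-Hochberg adjusted p under 0.05). Males were higher in 1522 of these genes (9.42% of all tested) and lower in 1323 (8.19%). Among called genes, a difference of at least 4 on the log2 scale was found in 60 genes that were higher and 91 that were lower in males. Between 2 and 4 the balance was the other way, with 297 higher and 147 lower, and between 1 and 2 there were 562 higher and 478 lower. Males and females did not overlap in 1133 genes (7.01%), of which 422 were called higher and 696 lower in males. All 14 hepatocyte markers were detected in every fish, with summed levels of 126200 to 194300 CPM in males and 60250 to 108800 CPM in females. Abundant plasma protein genes weighed most in this sum, such as c3 (medians 43290 CPM in males and 17010 CPM in females) and hpx (26380 and 905 CPM). Medians of fabp10a (988 and 1199 CPM) and rbp4 (1032 and 1797 CPM) were higher in females. Of the 14 folds, 11 were above 0 and 3 below. In bulk tissue, fewer cells of a type and less RNA per cell cannot be told apart. CPM are counts divided by library size, here after TMM scaling, a method that sets library sizes by the bulk of the genes rather than by the total.

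Some features of these libraries touch every result below. The males carrying fish numbers 18 and 26 stood apart on the first principal component (40.5% of the variance), at 114.15 and 102.08, where the other 4 males lay between 27.16 and 61.07 and the 7 females between -74.04 and -21.17. Without both of them 2735 genes were called (17%), 1352 higher (8.42%) and 1383 lower (8.61%) in males. Without male 26 alone the count fell to 1779, 883 higher and 896 lower. A handful of genes filled a large part of the female libraries, and the scaling matters for small folds. TMM factors were 1.195 to 1.653 in males and 0.617 to 0.923 in females. The part of those genes in the difference between scalings was not tested. When counts were divided by library totals alone, the median gene shifted to 0.97 and 12237 genes were called (75.7% of those tested), 11900 higher (73.6%) and 337 lower (2.09%) in males. Males were thus the higher sex in 97.2% of the calls, against 53.5% with TMM. Folds are therefore relative to the median gene, which lay at 0.05 with TMM. Among the 114 genes followed by name, 16 that lay below 0 with TMM lay above 0 against library totals.

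**Figure D1:**
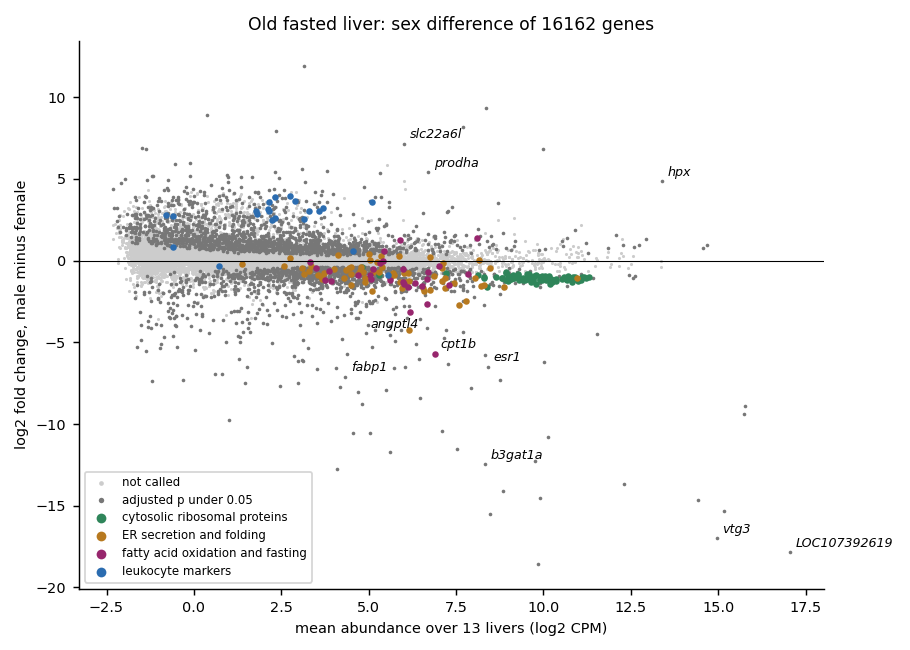
Each point is 1 of 16162 genes in old fasted liver, with mean abundance in log2 CPM on the horizontal axis and the male minus female log2 fold change on the vertical axis. Dark points passed an adjusted p of 0.05, and coloured points are 4 gene lists; the yolk gene vtg3 lies at -17.00 and the heme carrier gene hpx at 4.85, and ribosomal protein genes form a band near -1.08.

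The yolk gene vtg3 had one of the largest sex differences. The only vitellogenin gene with a symbol that was tested, vtg3, had a lowest, median and highest level of 0.117, 0.307 and 1.85 CPM in males, against 41720, 61090 and 102000 CPM in females. The groups lay orders of magnitude apart, and the log2 fold change was -17.00 ± 0.813 (SE, adjusted p 2.24e-08). In all 6 males together vtg3 had 101 counts. Within each genotype the fold was close to this, at -16.52 in Het and -17.68 in WT fish.

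A group of 6 genes, vtg3 among them, took 34% to 55.4% of all counts in the females, with a median of 44.6%, and 0.0215% to 0.0844% in the males. The other 5 members have no symbol in the files or in the RefSeq gene table used for names. The most abundant, LOC107392619, alone took 13.3% to 22.8% of counts in females and at most 0.000193% in males. Its level was 0.343, 1.30 and 1.71 CPM in males and 177600, 269500 and 417200 CPM in females, a log2 fold change of -17.85. LOC107392618 lies directly next to LOC107392619 in the RefSeq table, with no protein-coding gene between them, and 7 such genes separate LOC107392619 from vtg3. LOC107388898 and LOC107388899 are also direct neighbours, and LOC107372943 is on the same chromosome. Log2 fold changes were -15.33 for LOC107392618, -14.64 for LOC107388899, -9.38 for LOC107372943 and -8.90 for LOC107388898. Males kept a measurable level of the last 2, at 61.9 to 369 CPM for LOC107372943 and 28.1 to 557 CPM for LOC107388898, where the lowest female had 76900 and 77440 CPM. These 6 were picked for their share of counts in females, so their folds are a description.

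**Figure D2:**
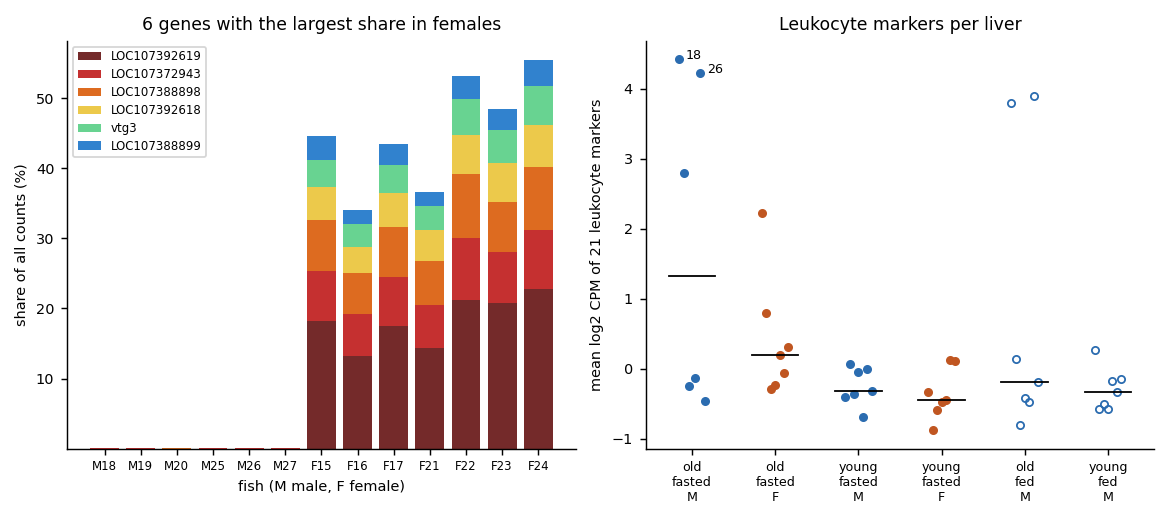
The left panel stacks the share of all counts (%) taken by 6 genes in each of the 13 old fasted livers, males first; the bars reach 34% to 55.4% in the females and are close to 0 in the males. The right panel gives the mean log2 CPM of 21 leukocyte markers per liver in 6 groups of fish, with bars at the medians, and males 18 and 26 are the highest of the old fasted fish.

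The estrogen receptor gene esr1 was also lower in males. It had 5.85, 7.05 and 12.6 CPM in males and 385, 695 and 1075 CPM in females, with no overlap and a log2 fold change of -6.50 ± 0.262 (SE, adjusted p 4.24e-09). Other steroid receptors gave smaller values. The estrogen receptor gene esr2 was lower in males by 0.71 (adjusted p 0.0341), but its groups overlapped, and it stood at 0.22 against library totals. The call was lost without male 25, 26 or 27 or without female 16, 22, 23 or 24 (highest adjusted p 0.0969). esr2a had 20.6 to 45.0 CPM in males and 28.6 to 54.4 CPM in females (log2 fold change -0.15, adjusted p 0.62, and 0.73 against library totals), and the androgen receptor gene ar had 36.0 to 129 CPM in males and 49.0 to 136 CPM in females (log2 fold change -0.56, adjusted p 0.298, and 0.30 against library totals). In the list of steroid receptors and steroid metabolism, 2 of 20 tested genes were higher and 2 lower in males. These shares were near the 9.42% of all genes called higher and the 8.19% called lower. Those higher were hsd17b3 (log2 fold change 2.75), whose mammalian counterpart makes testosterone, and hsd17b14 (0.81), whose call was kept in 3 of 13 fits that left out 1 fish, those without male 18, female 16 or female 17. The egg envelope gene zp3c stayed below 1.4 CPM in both sexes and was not called (log2 fold change 0.45, adjusted p 0.49).

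**Figure D3:**
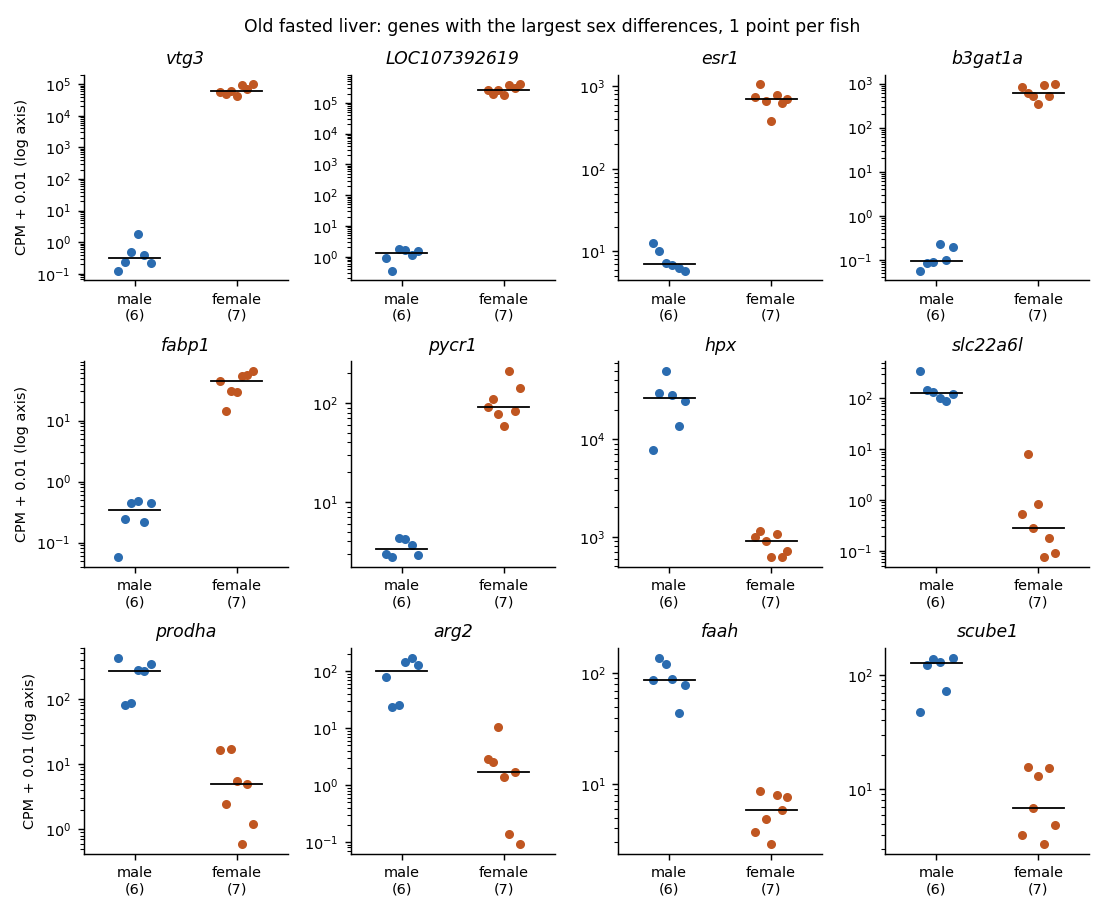
Levels of 12 genes in each old fasted liver, as CPM plus 0.01 on log axes, with males at the left of each panel and females at the right and bars at the medians. In every panel the groups are separate, with vtg3, LOC107392619, esr1, b3gat1a, fabp1 and pycr1 lower and hpx, slc22a6l, prodha, arg2, faah and scube1 higher in males. Separation was a condition of choice for vtg3, b3gat1a and the genes higher in males, and LOC107392619 was picked for its share of counts in females.

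Several enzymes and receptors that are not part of the yolk itself were also nearly silent in males. The 10 largest named falls included b3gat1a, a glucuronyltransferase that builds the HNK-1 sugar epitope in mammals, with 0.0468, 0.0834 and 0.223 CPM in males and 351, 612 and 983 CPM in females (log2 fold change -12.47). A pair of FAM20C relatives followed, FAM20C being the Golgi kinase that phosphorylates secreted proteins in mammals. The first, fam20cl, had at most 0.492 CPM in males and at least 319 CPM in females (log2 fold change -11.55), and fam20ca had at most 1.36 CPM and at least 25.4 CPM (-8.43). All 7 females were above all 6 males for each of these genes. The 10 were picked among genes without overlap, so this separation was a condition of their choice and not a result.

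The orphan receptor gene gpr160 had 18.0 to 106 CPM in females and 5 counts in all males together (log2 fold change -10.57). The protease inhibitor relative wfdc2 had at most 0.562 CPM in males and 151 to 448 CPM in females (-10.40). ddah1, which breaks down methylated arginines, had at most 0.258 CPM in males and 23.4 to 92.8 CPM in females (-8.77). A tRNA gene (trnal-cag_5, -7.66), a calmodulin-dependent kinase gene (camk1gb, -7.50) and the membrane-bending protein gene baiap2l2 (-7.47) completed the 10. At a few reads per male library the exact size of such folds depends on the prior count of the fit, and the separation of the groups does not.

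Many genes of secretion were lower in fasted males than in fasted females, relative to the median gene. In the list of endoplasmic reticulum secretion and folding, 31 of 66 tested genes were lower and 0 higher in males, with a median of -0.82 where all genes had 0.05. The list followed the route of a secreted protein. At the membrane channel and its translocon-associated complex, ssr2 had 140, 265 and 334 CPM in males and 616, 732 and 1040 CPM in females (log2 fold change -1.63, adjusted p 0.000247), and ssr4 fell by 1.54. Among the factors that attach sugars and trim signal peptides, ostc (-1.70) and spcs2 (-1.06) were called, with separate groups. The largest differences were in folding factors: creld2, induced by endoplasmic reticulum stress in mammals, had 4.50, 5.57 and 21.4 CPM in males and 53.6, 126 and 271 CPM in females (-4.22), and the disulfide isomerase gene pdia4 fell by 2.71. These 2 genes were singled out after their values were seen. The mean log2 CPM of the 66 genes was 4.84 to 5.61 in old fasted males and 5.56 to 6.33 in old fasted females. Old fed males, which were not part of the test, had 5.89 to 6.48, above every old fasted male. Young fed males had 5.89 to 6.68, and young fasted males 4.97 to 5.19. The low level was thus seen in fasted males and not in fed males. Whether fed males and fed females differ was not tested.

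Cytosolic ribosomal protein genes moved together. All 80 tested were below 0, 79 were called lower in males and 0 higher, and the median was -1.08. Folds were narrow in range, from -1.59 for rpl22l1 to -0.36 for rpl5a, the only gene not called (adjusted p 0.225). For instance, rpl12 had 424, 676 and 944 CPM in males and 1446, 1788 and 2388 CPM in females, without overlap. In the translation factor list 11 of 41 genes were lower and 1 higher in males, with a median of -0.42. All of the elongation factors named by rule fell, eef1g by 1.54, eef1b2 by 1.36 and eef1da by 1.22. Among the nuclear genes of oxidative phosphorylation 6 of 60 were lower, a share near the 8.19% of all genes called lower, and 0 were higher. The median of that list was -0.23, with ndufb9 (-0.69) and ndufb2 (-0.64) among the called genes, and these stood at 0.22 and 0.29 against library totals.

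Most of these folds are small, and the scaling turned the sign of the secretion and oxidative phosphorylation medians. Against library totals, the median of the ribosomal protein list was -0.19, with 70 of 80 genes below 0, 7 called lower and 1 higher. That of the secretion list was 0.20, and that of oxidative phosphorylation 0.69, with all 60 genes above 0, while the median of all genes was at 0.97. Relative to the median gene these medians were -1.16, -0.77 and -0.29. Without males 18 and 26 the called numbers were 77 of 80 ribosomal protein genes, 39 of 66 secretion genes and 5 of 60 oxidative phosphorylation genes lower in males.

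**Figure D4:**
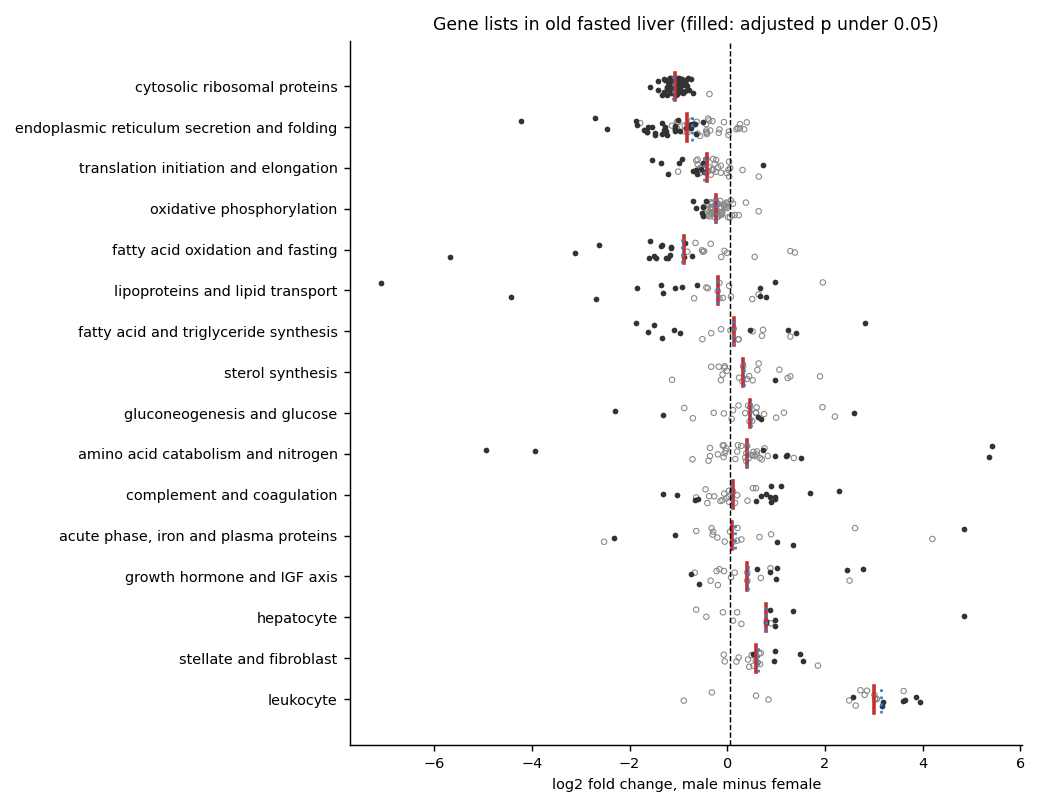
Log2 fold changes (male minus female) of the genes of 16 lists in old fasted liver, filled where the adjusted p was under 0.05. Solid red bars are list medians, from -1.08 for ribosomal proteins to 3.02 for leukocyte markers; dotted blue bars are the medians against library totals after the shift of the median gene is taken off, and the dashed line marks the median of all genes at 0.05.

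Of the 10 named genes with the largest rises in males, hpx encodes a plasma protein, hemopexin, which binds free heme in plasma. It had 7740, 26380 and 50010 CPM in males and 616, 905 and 1161 CPM in females, with no overlap and a log2 fold change of 4.85 ± 0.383 (SE, adjusted p 3.31e-06). In fed males, which were not part of the test, it had 9918 to 49410 CPM at 15 weeks and 31840 to 65000 CPM at 6.5 weeks. A related gene, hpxb, had 3332 to 5858 CPM in males and 2688 to 5001 CPM in females and was not called (log2 fold change 0.20, adjusted p 0.403).

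The largest named rise was in sapcd1, with 2.06, 8.08 and 37.7 CPM in males, where 4 of 7 females had no count and the highest had 0.193 CPM (log2 fold change 7.95). Next came slc22a6l, of the organic anion transporter family, with 87.9, 128 and 349 CPM in males and 0.0643, 0.266 and 8.07 CPM in females (7.16, adjusted p 0.00014). faah, which degrades fatty acid amides such as anandamide, had 44.4 to 139 CPM in males and 2.86 to 8.72 CPM in females (3.91). All of these, like hpx, separated the sexes without overlap, which was a condition for being among the 10. The secreted protein gene scube1 (3.60), the arrestin relative arrdc3b (3.68), the zinc finger gene hivep3a (4.37) and si:ch211-160b11.4 (3.89) completed the 10 with prodha and arg2. For hivep3a the size rests in part on male 18, at 42.7 CPM where the other 5 males had 3.70 to 5.14 CPM.

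Other plasma protein genes were called in both directions. In complement and coagulation, 11 of 34 genes were higher and 4 lower in males, with 21 above 0 and a median of 0.11, where all genes had 0.05. All 3 fibrinogen chains were among those higher. fga had 6970, 10800 and 13400 CPM in males and 3697, 5243 and 6772 CPM in females (log2 fold change 0.97, adjusted p 0.00127), with separate groups. The complement gene c8b (0.91) was higher, and the clotting factor gene f9 fell by 1.03 and the cell adhesion gene vtnb by 1.31. Against library totals f9 was at -0.09 and vtnb at -0.38, and neither was called. In the acute phase, iron and plasma protein list, 3 of 21 were higher and 2 lower, where 9.42% of all genes were higher and 8.19% lower. The transferrin gene tfa, an iron carrier, had 9376, 12310 and 17240 CPM in males and 3109, 4559 and 11390 CPM in females (1.35, adjusted p 0.00375), and the highest female lay within the male range. The ferritin gene ftl fell by 1.07, and stood at -0.17 against library totals. serpina10a, of the serpin family of plasma protease inhibitors, had 4.16 to 4.87 CPM in males and 6.60 to 44.1 CPM in females (-2.33).

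Among amino acid genes, one of proline breakdown was higher and one of proline synthesis lower in males. prodha, proline dehydrogenase, which starts proline breakdown, had 82.1, 273 and 432 CPM in males and 0.579, 4.95 and 17.0 CPM in females (log2 fold change 5.42 ± 0.790, SE, adjusted p 0.000669). pycr1, which catalyses the last step of proline synthesis, had 2.75, 3.34 and 4.36 CPM in males and 58.5, 92.0 and 212 CPM in females (-4.95 ± 0.319, SE, adjusted p 4.33e-07). Neither gene overlapped between the sexes, which for prodha was a condition of its choice, and they differed in opposite directions.

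Enzymes on either side of these steps are in the same list. arg2, a mitochondrial arginase that makes ornithine, had 23.7, 102 and 173 CPM in males and 0.0808, 1.67 and 10.5 CPM in females (log2 fold change 5.37, adjusted p 0.00247). The ornithine aminotransferase gene oat had 785 to 1205 CPM in males and 325 to 588 CPM in females (1.23), and got1, an aspartate aminotransferase, had 253 to 657 CPM in males and 139 to 252 CPM in females (1.52). All 3 had separate groups, which for arg2 was a condition of its choice. psat1, of serine synthesis, was lower in males by 3.94 and was singled out after its values were seen. In the whole list 7 of 40 tested genes were higher and 2 lower in males, where 9.42% of all genes were higher and 8.19% lower. Fed males of the same age had 0.0799, 0.423 and 1.26 CPM of arg2, below every fasted male, and 0.692, 4.95 and 98.8 CPM of prodha, which overlapped the fasted males. At 6.5 weeks arg2 was not called (3.08, adjusted p 0.113) and prodha was (3.38, adjusted p 0.0217).

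Many fatty acid oxidation genes were lower in males. In this list 17 of 29 genes fell and 0 rose, with a median of -0.89, and the members called covered most steps of the pathway. cpt1b, of the carnitine palmitoyltransferase family that admits fatty acids to mitochondria, had 3.82, 4.67 and 5.97 CPM in males and 136, 294 and 324 CPM in females. Its log2 fold change of -5.69 ± 0.266 (SE, adjusted p 1.83e-08) was the largest of the list, and the groups were separate. Its relative cpt1ab, singled out after its values were seen, fell by 1.60 with overlapping groups, and the call was lost without female 17, male 25 or male 26 (highest adjusted p 0.0709).

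Within the mitochondrion, acaa2, which catalyses the last step of beta-oxidation, had 19.2, 30.2 and 38.9 CPM in males and 110, 190 and 259 CPM in females (log2 fold change -2.64). The acyl-CoA dehydrogenase genes acadvl (-1.35), acadl (-1.14), acadm (-1.14) and acads (-1.26), both trifunctional protein genes hadha (-1.57) and hadhb (-1.34), and etfa (-1.21) and etfdh (-1.46), which pass the electrons on, were all called lower in males. The kinase genes pdk2a (-3.12) and pdk4 (-1.50), whose products hold back glucose oxidation, were called lower too. Outside the list, acsl1, which activates long-chain fatty acids, had 6.81, 8.94 and 24.5 CPM in males and 72.4, 273 and 500 CPM in females (-4.74, adjusted p 5.23e-05). Genes of this paragraph other than acaa2, etfa and pdk2a were singled out after their values were seen.

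Not every member was called, and the list again depends on the scaling. ppargc1a (1.29, adjusted p 0.0836) and ppara (1.38, adjusted p 0.163) lay above 0 without being called. The peroxisomal gene ehhadh (-0.01, adjusted p 0.992) was not called either. Against library totals 14 of 29 genes were above 0, 3 were called lower and 8 higher, and the median was -0.005, which is -0.98 relative to the median gene. cpt1b was at -4.74, acaa2 at -1.71 and pdk2a at -2.25 under that setting. Without males 18 and 26, 17 members were lower and 2 higher in males.

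This lipid difference was larger at 15 weeks than at 6.5 weeks. The male minus female difference itself differed between the ages in 54 of 16810 genes, or 0.321%, and in 52 of these (0.309%) it was more negative and in 2 (0.0119%) more positive in old fish. By DESeq2 the count was 282, 90 positive and 192 negative, and against library totals 18, 4 positive and 14 negative, with all 52 keeping their sign. By DESeq2, 53 of the 54 were called. In the fatty acid oxidation list 6 of 29 were among the 54, all negative, with cpt1b, pdk2a, pdk4, hadhb and etfdh among them. The list's median difference was -0.98, where all genes had 0.025, and 27 of its 29 genes were below 0. It was -0.84 against library totals, with 24 below 0 and 1 called, and from -1.10 to -0.88 when 1 fish was left out, with 1 to 13 members called. Ribosomal protein genes had a median of 0.03 in this test and secretion genes 0.11, with 0 called in either list.

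Some marker lists of other cell types had medians far from 0 in the same test, without called genes. Leukocyte markers had a median difference between ages of 2.80, with 19 of 21 above 0 and 0 called, and their summed level was 25.6 to 55.2 CPM in young males and 33.9 to 64.6 CPM in young females. Endocrine pancreas markers had a median of -6.57, with 6 of 6 below 0 and 0 called. Their summed level was 1.12 to 30.2 CPM in old males and 1.09 to 155 CPM in old females, and 0.786 to 77.4 CPM in young males and 0.683 to 10.3 CPM in young females, so the sexes overlapped at both ages. Old females 24 and 21 had 155 and 30.2 CPM, where the other old females had at most 12.3 CPM. Young males 32, 38 and 41 had 53.2 to 77.4 CPM, where the other young males had at most 9.42 CPM. In young liver alone 5 of the 6 endocrine markers were called higher in males. Without males 18 and 26, the 2 old males highest in leukocyte markers, 22 genes were called for the age difference, all more negative in old fish, and 17 of them were among the 54. All 54 kept their sign in that fit. The oxidation list then had a median of -0.92, with 25 of 29 below 0 and 2 called. The part of the endocrine markers in this result was not tested.

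The levels show where the ages parted. cpt1b had 3.82 to 5.97 CPM in old males and 136 to 324 CPM in old females, and 18.7 to 96.4 CPM in young males and 62.5 to 296 CPM in young females. Its difference between ages was -3.72 ± 0.542 (SE, adjusted p 0.00211), and it kept this call in all 27 fits that left out 1 fish. angptl4, a fasting-induced inhibitor of lipoprotein lipase, had 1.19, 2.89 and 4.91 CPM in old males, 14.1, 84.1 and 99.7 CPM in old females, 25.3, 73.7 and 89.3 CPM in young males and 15.0, 39.3 and 88.3 CPM in young females. Old males thus lay below each of the other fasted groups without overlap, and the young sexes overlapped. The difference between ages was -4.82 ± 0.747 (SE, adjusted p 0.00421). The transcription factor gene klf11 also had old males below each of the other fasted groups without overlap, with 4.05 to 10.8 CPM in old males, 29.6 to 88.1 CPM in old females, 34.3 to 82.9 CPM in young males and 25.5 to 133 CPM in young females (difference -2.47, adjusted p 0.0143).

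Others among the 54 encode proteins of the same processes. acsl1 (-2.95), the carnitine acetyltransferase crat (-1.13), malonyl-CoA decarboxylase mlycd (-1.40), the triglyceride synthesis enzyme dgat1a (-1.63), the lipid droplet protein cidec (-2.37), the glycolysis regulator pfkfb4b (-2.25), apof (-1.17) and creb3l3a (-1.14), whose mammalian counterpart is a fasting-responsive transcription factor of the liver, had more negative differences in old fish. Of the genes named for this test, acsl1, crat, mlycd, cidec, creb3l3a, klf11, pdk4, hadhb and etfdh were singled out after their values were seen. Of those named here, apof, cpt1b, angptl4, pfkfb4b, dgat1a, crat and creb3l3a kept the call in all 27 such fits, acsl1 in 25, klf11 in 26, pdk2a in 17, and pdk4, mlycd, hadhb, etfdh and cidec in 5 to 9. Without males 18 and 26 together, klf11 (adjusted p 0.054), pdk2a (0.112), pdk4, mlycd, hadhb, etfdh and cidec were not called, and the others were. Within old fish, crat and creb3l3a had male minus female folds of -0.87 and -0.79, and these turned to 0.02 and 0.12 against library totals.

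Single fish moved the number of genes called for this age difference. It was 15 without old male 26, 18 without old male 25, 21 without old female 23, 25 without old female 21 and 26 without old female 15. It was 22 or 23 without any 1 of the young fish 28, 35, 36, 37, 39 and 40, 30 to 34 without fish 17, 27 or 29, and 84 and 87 without old fish 20 and 16. Female 16 was the lowest of the old females for acsl1 (72.4 CPM, where the others had 254 to 500 CPM).

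**Figure D5:**
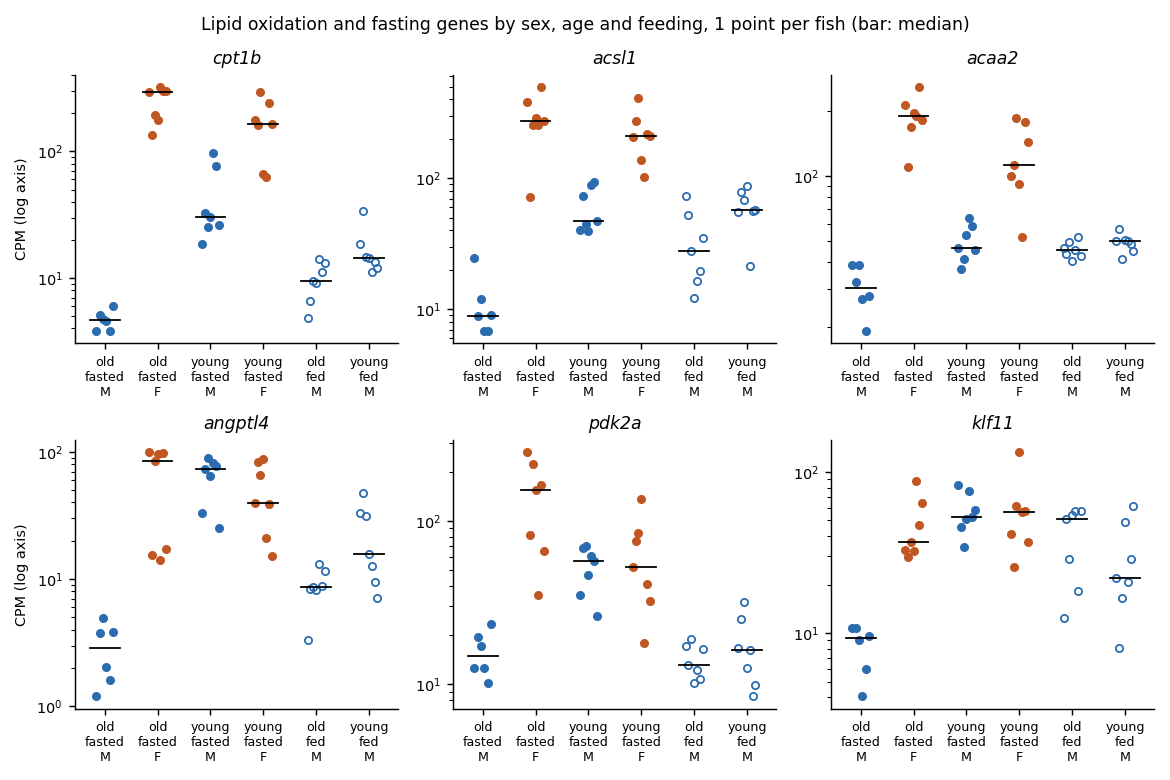
Levels (CPM, log axes) of 6 lipid and fasting genes in each liver of 6 groups, filled for fasted and open for fed fish, with bars at the medians and males in blue. Old fasted males have the lowest median of the 4 fasted groups in every panel, for example at 3.82 to 5.97 CPM for cpt1b, and the angptl4 and klf11 levels of the young sexes overlap.

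Fed males give a further level to set beside these. Old fed males had 4.81, 9.44 and 14.2 CPM of cpt1b, 3.29, 8.58 and 13.1 CPM of angptl4 and 10.2, 13.1 and 18.9 CPM of pdk2a. These levels overlapped those of old fasted males, as did acsl1 at 12.2 to 72.9 CPM. Levels of klf11 (12.4 to 57.6 CPM) and acaa2 (40.3 to 52.5 CPM) in old fed males lay above those of every old fasted male. The mean log2 CPM of the 29 oxidation genes was 4.91 to 5.32 in old fasted males and 5.72 to 6.41 in old fasted females, without overlap. It was 5.52 to 6.12 in young fasted males, 5.33 to 6.06 in young fasted females, 5.25 to 5.68 in old fed males and 5.51 to 5.76 in young fed males.

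Other lipid lists held called genes of both directions. In lipoproteins and lipid transport, 9 of 25 genes were lower and 4 higher in males. The fatty acid binding protein gene fabp1 had 0.0468, 0.329 and 0.478 CPM in males and 14.2, 45.1 and 65.5 CPM in females (log2 fold change -7.10), and the apolipoprotein gene apoeb had 60.4 to 207 CPM in males and 381 to 773 CPM in females (-2.69). In fatty acid and triglyceride synthesis, 6 of 21 were lower, among them agpat2 (-1.86), an acyltransferase of glycerolipid synthesis, and 4 were higher, among them lpin1 (2.82), which encodes a phosphatidate phosphatase and had 1.22 to 4.18 CPM in males and 0.161 to 0.60 CPM in females. Only fdps, a gene of isoprenoid synthesis (0.97, adjusted p 0.0313), was called among 21 sterol synthesis genes, and it was not called when all livers were fitted together (adjusted p 0.204) or without fish 16, 17, 22 or 27. In gluconeogenesis and glucose, 3 of 25 were higher and 2 lower, shares near the 9.42% and 8.19% of all genes. The lower pair was pfkfb4b (-2.29) and pfkfb4 (-1.32), which set the level of a glycolysis activator. In cytochrome P450 and conjugation enzymes 3 of 21 were lower and 0 higher, where 8.19% of all genes were lower and 9.42% higher. Those lower were gstk1 (-1.34), cyp3a65 (-1.32) and mgst3 (-0.50, and 0.45 against library totals). The call of mgst3 was kept in 3 of 13 fits that left out 1 fish (highest adjusted p 0.135).

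Growth genes included the main liver hormone. igf1 had 209, 477 and 565 CPM in males and 184, 210 and 271 CPM in females (log2 fold change 1.03, adjusted p 0.00405), and male 18, the lowest male, was within the female range. The Janus kinase genes of growth hormone signalling differed in opposite directions, jak2a by 0.60 and jak2b by -0.57, and jak2b was at 0.36 against library totals. In the growth hormone and IGF list 6 of 21 were higher and 2 lower in males, where 9.42% of all genes were higher and 8.19% lower. The share called lower was thus near that of all genes. socs1, a brake on cytokine and growth hormone signalling, was higher by 2.78, and was not called without males 18 and 26 (adjusted p 0.0588). In killifish a Y-linked copy of gdf6 is the sex-determining gene, and reads of the X and Y copies cannot be told apart in one row of counts. gdf6 had 3.28 to 4.83 CPM in males and 4.85 to 16.6 CPM in females (-1.33, adjusted p 0.00184), and it stood at -0.44 against library totals, where it was not called. In the list of sex determination and gonad genes 5 of 13 were tested, and rspo1 (1.76, adjusted p 0.0034) and wt1a (1.21, adjusted p 0.0225) were the 2 higher in males. The call of wt1a was lost without male 26 (adjusted p 0.057).

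For cell cycle genes, 2 of 40 were higher and 1 lower, for purine metabolism 0 of 31 were called by edgeR and 4 by DESeq2, and for proteasome and autophagy 2 of 55 were lower in males. None of these shares exceeded the 17.6% of all genes.

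Leukocyte markers were unevenly spread over the males. Of 21 tested, 7 were called higher and 0 lower, with a median of 3.02. Their mean log2 CPM was 4.42, 4.22 and 2.79 in males 18, 26 and 19 and -0.46 to -0.14 in the other 3 males, against -0.30 to 2.22 in females. The summed level of the list was 41.2 to 899 CPM in males and 65.9 to 198 CPM in females, so the groups overlapped. The myeloid genes irf8 and cybb had 0.255 to 31.8 CPM and 0.350 to 53.4 CPM in males, and 0 to 3.84 CPM and 0.392 to 4.91 CPM in females. Without males 18 and 26 the median was 0.13 and only mpx, the myeloperoxidase gene of neutrophils, was called (1.92, adjusted p 0.00783). The calls of irf8, cybb, cd74, lyz and ptprc were also lost in most fits that left out 1 fish, that without male 18 among them. Of 13 such fits, irf8, cybb and cd74 kept the call in 5, ptprc in 4 and lyz in 3. The part of these markers in the other results was not tested beyond the values without males 18 and 26.

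Other cell types were checked in the same way. Of the 19 stellate and fibroblast markers, 5 were higher and 0 lower in males, and the fibronectin gene fn1 led them (1.56, adjusted p 0.000837). Summed levels of the list were 5224 to 10760 CPM in males and 2239 to 4857 CPM in females. Most of that sum was fn1 alone, at 4717 to 10530 CPM in males and 2076 to 4673 CPM in females. The collagen marker col1a1a had 12.2 to 57.4 CPM in males and 7.74 to 29.2 CPM in females, which overlapped. Which cells of the liver held the fn1 RNA was not tested. The mean log2 CPM of the list overlapped between the sexes, at 3.021 to 4.242 in males and 2.021 to 3.075 in females. Exocrine pancreas markers had 286 to 2081 CPM in males and 122 to 2338 CPM in females, with 0 of 5 called. Summed adipocyte markers did not overlap, at 92.4 to 123 CPM in males and 133 to 297 CPM in females. Their mean log2 CPM did, at 3.322 to 3.815 in males and 3.582 to 4.472 in females. This list holds cidec, a lipid gene named above, with medians of 43.9 and 180 CPM. The part of adipocytes in the lipid results was not tested. Summed endothelial, erythroid and cholangiocyte markers overlapped between the sexes. Of the 14 ovary and oocyte markers 2 passed the filter on low counts, with both higher in males, and of the 17 testis markers 7 did, with 1 higher and 1 lower. Hepatocyte markers were called higher in males in 7 of 14 cases, with 0 lower and a median of 0.80, and hpx, the fibrinogen genes, c3, tfa and apoa1a were those genes.

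The targeted gene did not separate the sexes. aprt had 5.98, 11.5 and 17.6 CPM in males and 5.53, 10.5 and 12.6 CPM in females (log2 fold change 0.14 ± 0.200, SE, adjusted p 0.661). Against library totals it was 1.01 (adjusted p 0.00345), near the shift of the median gene. The library labelled Het of female 21 had 11.9 CPM, within the 10.5 to 12.6 CPM of the WT females, where the other 3 Het females had 5.53 to 8.40 CPM. When 4 group means were fitted, the sex difference itself differed between genotypes in 12 of 16162 genes, 9 more positive and 3 more negative in Het. Among the 12 were igfbp1a (-1.345 in WT and 4.947 in Het fish) and LOC107391199 (-0.161 in WT and -4.815 in Het fish). The sex difference was called in 628 of the 16162 genes within WT fish (3 males and 3 females). Within Het fish (3 males and 4 females) it was called in 2635 of them. These counts rest on different numbers of fish and do not themselves compare the genotypes, which the test with 12 calls does. 0 of the 114 genes followed by name were among the 12, and some of the 114 were picked for no overlap between the sexes. With 12 calls among 16162 genes, a list of 114 would seldom hold any by chance, so this 0 carries little weight. The fold of cpt1b was -5.84 in Het and -5.51 in WT fish, and that of hpx 4.85 in Het and 4.84 in WT fish.

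Most of the sex difference was also seen at 6.5 weeks, in other fish. Of the 2845 genes called in old fish, 2688 could be tested in young fish and 2511 had the same sign there. In young livers 4139 of 15836 genes were called (26.1%), 2078 higher (13.1%) and 2061 lower (13%) in males. A total of 1673 genes were called with the same sign at both ages, which is 58.8% of the old calls and 40.4% of the young calls, and 5 were called with opposite signs. vtg3 was at -18.44 in young fish, esr1 at -6.44, hpx at 4.77, slc22a6l at 7.42 and faah at 4.06. The ribosomal protein list was lower in young males in 80 of 80 genes, with a median of -1.15, and the fatty acid oxidation list in 3 of 29, with 5 higher and a median of -0.02. Against library totals 11335 genes were called in young fish and the median gene lay at 0.76.

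Muscle of the same old fish differed far less between the sexes. Of 16017 genes, 32 were called (0.2%), 15 higher (0.0937%) and 17 lower (0.106%) in males, or 358 by DESeq2. Of the genes called in liver, 11 were called in muscle and 8 of them had the same sign. igflr1 was higher in males in both tissues, by 3.43 in muscle and 4.25 in liver, with 1.15 to 2.48 CPM in male muscle and 0.0759 to 0.319 CPM in female muscle. rnf19a, a ubiquitin ligase gene, fell by 1.20 in muscle and 1.69 in liver. cpt1ab was lower in males by 1.20 in muscle, and the transferrin receptor gene tfr1a differed in opposite directions, at -1.66 in muscle and 1.02 in liver. The smallest adjusted p in muscle was that of LOC107395342, which has no symbol, with 0.0624 to 0.701 CPM in males and 89.5 to 139 CPM in females (-8.97, adjusted p 2.73e-07), and in liver it did not pass the test (0.15, adjusted p 0.918). These genes were singled out after their values were seen. The muscle count was 6 to 17 without any 1 of fish 15, 17, 18, 19, 21, 22, 24, 25, 26 and 27.

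Reads of genes abundant in liver were present in some muscle libraries. LOC107392619 was called in muscle (-11.85, adjusted p 0.0354), with 0.484 to 61.2 CPM in 6 females and 785 CPM in female 23, and at most 0.0829 CPM in males. vtg3 was not called there (-7.99, adjusted p 0.0727). Muscle of female 23 also had the highest fga of the females, at 15.3 CPM where the others had at most 3.26 CPM. Muscle of male 25 had 728 CPM of hpx and 306 CPM of fga, where the other males had at most 2.69 and 1.79 CPM. The part of liver RNA in these values was not tested. The sex difference itself differed between liver and muscle in 1220 of 17987 genes (6.78%), 587 more positive (3.26%) and 633 more negative (3.52%) in liver, and 988 of these were called in liver. Among them were esr1 (-6.19), cpt1b (-4.25) and 70 of 80 ribosomal protein genes, all more negative in liver. The count was 778 without fish 24, 645 without fish 26 and 788 without fish 27. This fit had no term for fish, although both tissues came from the same fish. With fish as a replicate block 1192 genes were called. Liver and muscle libraries were made with different kits, which cannot be told apart from tissue in levels.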

How the data were processed

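Liver and muscle RNA was sequenced, and reads were trimmed and aligned with FastQC 0.11.8, Trim Galore 0.6.4, cutadapt 3.4 and STAR 2.7.6a, per the submitters' processing notes; the genome build and the counter are not given in the sources used here. The deposited tables hold whole-number counts per gene and library, not normalised by the authors. Of 25065 liver genes, 14280 have LOC identifiers, and 5241 of these were named from a RefSeq gene table (assembly NfurGRZ-RIMD1), for names and neighbours only. Names that RefSeq shares between near-identical copies were not resolved.

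Genes with too few counts were removed (filterByExpr in edgeR, minimum count 10, minimum total 15), and counts were scaled by TMM and tested with edgeR 4.0.16 (quasi-likelihood, R 4.3.3, limma 3.58.1). Models held sex and genotype. The sex by age test and the sex by tissue test were interaction terms, and the adjusted p is Benjamini-Hochberg over all genes tested. SE is the absolute log2 fold change divided by the square root of the quasi-likelihood F statistic. For genes near 0 counts in males it thus depends on the prior count, as the fold does. DESeq2 1.42.0 was an alternative. CPM were computed from the deposited counts, with 1 TMM scale over the 41 livers and 1 over the muscles. The steps were run on simulated counts in which a small set of genes was changed by known, balanced folds. No genes filled the libraries of 1 sex there, so that run does not bear on the scaling. Named genes were the 10 largest rises and falls among called genes with a symbol, a mean log2 CPM of at least 1 and no overlap between the sexes, then aprt, yolk and steroid receptor genes, and up to 4 genes per list with the smallest adjusted p. The members and lists were chosen with earlier results of these data known. Each library is labelled as a different fish, and within-group pairs of libraries differed beyond sampling noise (lowest chi-square per degree of freedom 26.65 over 15 pairs). Liver and muscle numbers name the same fish, and same-fish deviations correlated in all 13 pairs (0.172 to 0.570 over 8971 genes). Precision is limited by 6 and 7 fish per sex rather than by depth, except where fewer than about 3 counts were seen.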

Additional observations from a re-analysis of the deposited data

Results flagged for a closer look

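In 18 of 228 sets of old fasted livers of 1 sex, 1 gene each, a single fish stood far from the others, where chance gives about 1 in 20. The sets share the same fish and many of those flagged are of male 18. They are thus not independent, and the 18 cannot be weighed against that rate. Male 18 had 207 CPM of apoeb (other males 60.4 to 80.1 CPM), 77.4 CPM of apof (104 to 116 CPM), 21.4 CPM of creld2 (4.50 to 6.10 CPM), 126 CPM of pdia4 (37.4 to 47.1 CPM) and 2.60 CPM of psat1 (0.382 to 0.800 CPM). The same male had 42.7 CPM of hivep3a (3.70 to 5.14 CPM), 349 CPM of slc22a6l (87.9 to 147 CPM), 38.5 CPM of hsd17b14 (98.1 to 154 CPM), 209 CPM of igf1 (414 to 565 CPM) and 28.1 CPM of LOC107388898 (204 to 557 CPM). For apoeb, creld2, pdia4, psat1 and igf1 its level was the nearest of the males to the females. Male 19 had 0 CPM of gpr160, where the other males had at most 0.0390 CPM, a level near the floor of detection.

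Among females, fish 16 had 72.4 CPM of acsl1 (other females 254 to 500 CPM), 212 CPM of apof (263 to 308 CPM), 5.51 CPM of arrdc3b (0.556 to 1.53 CPM) and 11385 CPM of tfa (3109 to 5113 CPM). Fish 21 had 28.1 CPM of ftl (14.8 to 18.5 CPM). Fish 22 had 0.193 CPM of sapcd1 (0 to 0.0532 CPM) and 0.193 CPM of zp3c (0.510 to 0.852 CPM).

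In 19 of the 114 named genes, the male minus female difference was more negative in old than in young livers. The edgeR interaction test was used (adjusted p under 0.05), and 0.309% of all genes tested were called more negative. Several of the 19 were named after their values were seen, so their number is a description. For genes of fatty acid use the differences between ages were -3.72 (cpt1b), -2.95 (acsl1), -2.87 (pdk2a), -1.47 (etfdh), -1.40 (mlycd), -1.20 (pdk4), -1.13 (crat) and -0.98 (hadhb). For lipid storage, transport and their regulators they were -4.82 (angptl4), -2.37 (cidec), -1.63 (dgat1a), -1.17 (apof) and -1.14 (creb3l3a). The others were -2.47 (klf11), -2.25 (pfkfb4b), -1.68 (LOC107392618), -1.56 (cyp3a65), -1.21 (aco1) and -0.95 (nfe2l2). In fits that left out 1 of 27 fish, aco1 kept this call in 25, LOC107392618 in 11, cyp3a65 in 8 and nfe2l2 in 7. The LOC107392618 difference was not called by DESeq2 (adjusted p 0.619), and it rests on medians of 2.03 CPM in old males and 5.39 CPM in young males.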

How the results depend on the processing

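For the sex difference in old liver (2845 genes), DESeq2 gave 4113, RLE scaling 2841, no filter 2515, no genotype term 3145 and 4 group means 3179. Removal of egg yolk and envelope list genes from the scaling gave 2845, and removal of the 6 top-share genes 2852. Only 2 genes of the egg list passed the filter. Both fits still used TMM, which is set by the bulk of the genes, so they do not bear on the library totals. Fitting all livers together gave 5673, library totals 12237 and a minimum fold of 1 on the log2 scale 1635. Leaving out 1 fish gave 1779 to 3352. In young liver (4139), library totals gave 11335 and leaving out 1 fish 3415 to 5215. For the sex by age difference (54), DESeq2 gave 282, no filter 25, library totals 18, removal of males 18 and 26 together 22 and leaving out 1 fish 15 to 87. In muscle (32), DESeq2 gave 358, library totals 14 and leaving out 1 fish 6 to 41. For the sex by tissue difference (1220), DESeq2 gave 1850 and leaving out 1 fish 645 to 1409, and with fish as a replicate block 1192 genes were called. The cause of these moves was not tested.

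Among 114 named genes, 16 changed sign against library totals: ar 0.305, which was called in neither fit, crat 0.022, creb3l3a 0.115, eif4h 0.377, esr2 0.221, esr2a 0.727, jak2b 0.355, mgst3 0.446, ndufb2 0.293, ndufb9 0.223, nfe2l2 0.087, psmb7 0.438, rrm2b 0.465, uqcrc1 0.401, uqcrq 0.417 and wipi2 0.241. The only other change of sign in the settings run here was that of zp3c, which stood at -0.345 without males 18 and 26 and was called in neither fit. The library totals, the removal of males 18 and 26 together and the removal of the 6 top-share genes were chosen after seeing the data. Leaving out males 18 and 26 cost 13 of the 114 genes their call. Folds below about 1 on the log2 scale rest on the assumption that most genes do not differ. Genes at a few counts in males have fold sizes set in part by the prior count.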
